A study of Mus musculus with 15 samples.

Results

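The transcripts of 10 heat shock protein genes were followed in mouse bone marrow-derived macrophages (BMDM) that carried or lacked Nelfb, at rest and soon after lipopolysaccharide (LPS). The genes were taken by name: Hspa1a and Hspa1b (the stress-inducible HSP70 pair), Hspa8 (the constitutive HSP70), Hspa5 (the HSP70 of the endoplasmic reticulum, also called BiP), Hsp90aa1 and Hsp90ab1 (the cytosolic HSP90 pair), Hsph1 (an HSP110), Dnajb1 and Dnaja1 (J-domain partners of HSP70), and Hspb1 (a small heat shock protein). All 10 were among the 23996 genes of the table, and all 10 passed the filter of a mean of at least 0.5 FPKM (read fragments scaled to transcript length and to the library total) that kept 11258 genes. Hspb1, Hspa1a and Hspa1b lay near that filter in resting cells.

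Polyadenylated RNA was sequenced from 15 libraries in 5 groups of 3. Resting WT, WT after 0.5 h of LPS (10 ng/ml), WT after 1 h of LPS, resting Nelfb KO, and Nelfb KO after 0.5 h of LPS were compared. WT cells were Nelfb+/+, Lyz2-Cre and Nelfb KO cells were Nelfb fl/fl, Lyz2-Cre, on C57BL/6, so that both genotypes carried the Cre recombinase, which is expressed from the myeloid Lyz2 locus. The KO group was not treated for 1 h. The study's methods call the 3 libraries of a group biological replicates, and neither mouse age nor whether each came from its own animal was given in the sources used here. In the authors' deposited table each gene has 1 FPKM per group, their average over 3 libraries, so that the spread between libraries is not known, no test on libraries could be run here, and whether the libraries of 2 groups overlapped cannot be seen. The authors' own test columns in that table were not used. Every difference described here is between group averages.

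As to the whole series, Nelfb itself, which encodes a subunit of the negative elongation factor NELF, stood at 21.9 FPKM in WT and 5.65 FPKM in KO at rest, and at 19.7 and 5.55 FPKM at 0.5 h. Transcript of the gene therefore remained in the KO groups. The 8 macrophage markers examined had between 19.7 and 1641 FPKM, while 18 of 23 markers of other cells were under 1 FPKM in all 5 groups and the highest reached 9.50 FPKM (Cd4). The summed FPKM of the 4 T cell markers moved with genotype: it was 9.44, 9.56 and 9.74 in WT at rest, 0.5 h and 1 h, and 4.47 and 4.27 in KO at rest and 0.5 h. Cd4 alone reached 9.50 FPKM, so the sum tells little of the other T cell markers. The sum of the 4 fibroblast and stroma markers was 11.9, 13.0 and 14.6 FPKM in WT and 14.5 and 14.9 FPKM in KO at the same times. The part of either sum in the results was not tested. Summed FPKM ranged from 511973 (WT at 0.5 h) to 615071 (resting WT), the depth is unknown, and in bulk RNA fewer cells with a transcript and less transcript per cell cannot be told apart.

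Heat shock proteins are molecular chaperones. HSP70 binds unfolded stretches of client proteins in a cycle driven by ATP, J-domain proteins deliver clients and start that cycle, HSP110 exchanges the nucleotide, HSP90 takes over late folding of kinases and receptors, and small heat shock proteins hold unfolded clients without ATP. Under proteotoxic stress the factor HSF1 binds arrays of GAA units and raises transcription of the inducible members, and Hsp70 of Drosophila is the textbook gene on which RNA polymerase II is held near the start by NELF before heat releases it. NELF in mammalian cells acts at the same early step of elongation, which is the step that the Nelfb deletion addressed in these macrophages.

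The 10 genes lay far apart in FPKM. Hspa8 was the highest with 1204 FPKM in resting WT and stood at place 81 among all genes of the table, followed by Hsp90ab1 with 515 FPKM (place 182), Hspa5 with 287 FPKM (place 336) and Hsp90aa1 with 135 FPKM (place 681). The co-chaperones were lower, with 29.0 FPKM for Dnaja1, 14.8 FPKM for Dnajb1 and 13.7 FPKM for Hsph1. At the bottom were Hspa1b with 0.749, Hspa1a with 0.639 and Hspb1 with 0.496 FPKM. Constitutive and inducible HSP70 thus lay at opposite ends of the order in resting cells: the FPKM of Hspa8 was 867 times the sum of Hspa1a and Hspa1b. Together the 10 genes had 2200 FPKM, or 0.358% of the sum over all genes, in resting WT, and between 0.359% and 0.413% in the other 4 groups. Hspa8 alone held between 53.2% and 56.0% of the members' sum. Neighbours in this order, such as Dnajb1 and Hsph1 or Hspa1a and Hspa1b, have no spread to be separated by.

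**Figure D1:**
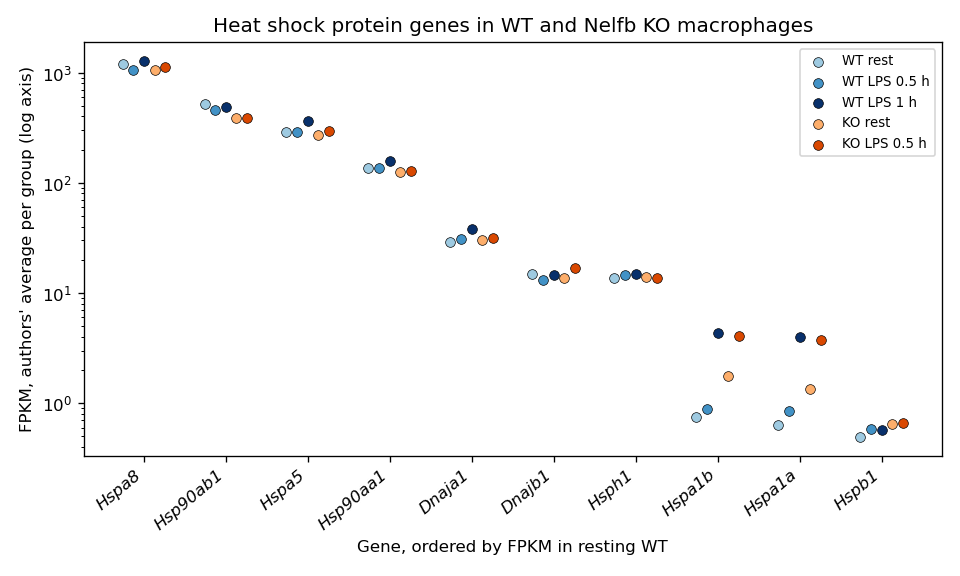
FPKM of the 10 heat shock protein genes (logarithmic axis), each point being the authors' average of 1 group, with genes ordered by their FPKM in resting WT. The 5 points of 8 genes lie close together, whereas Hspa1a and Hspa1b run from under 1 FPKM in resting WT to about 4 FPKM in WT at 1 h and in KO at 0.5 h.

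Hspa1a and Hspa1b were the genes whose group values spread most. In WT, Hspa1a stood at 0.639 FPKM at rest, 0.858 FPKM at 0.5 h and 4.01 FPKM at 1 h of LPS, and in KO at 1.35 FPKM at rest and 3.74 FPKM at 0.5 h. Hspa1b stood at 0.749, 0.884 and 4.37 FPKM in WT and at 1.77 and 4.05 FPKM in KO at the same times. The 2 WT groups at rest and at 0.5 h were low, resting KO was between, and WT at 1 h and KO at 0.5 h were high. The highest value was 6.28 times the lowest for Hspa1a and 5.84 times for Hspa1b, against 1.10 to 1.34 times for the other 8 genes. On the scale of log2(FPKM + 1), the range over the groups of each of the pair exceeded that of 97.4% of kept genes.

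**Figure D2:**
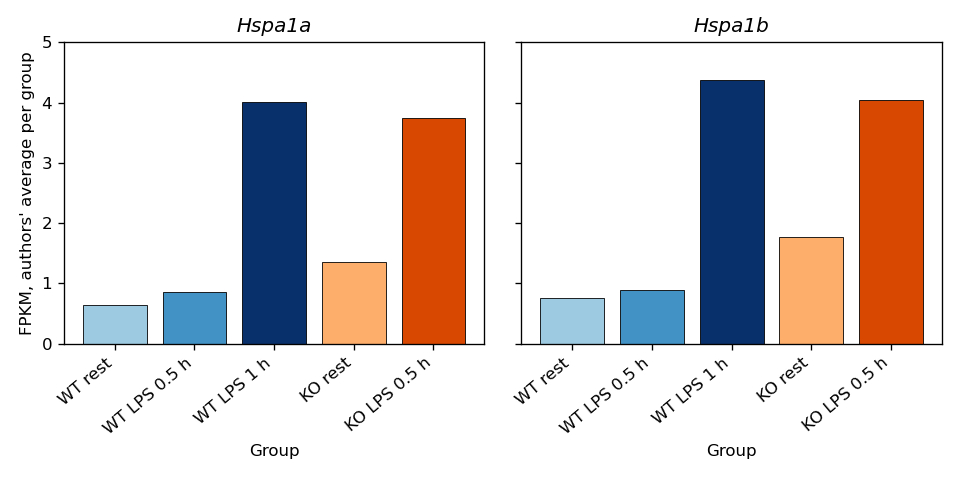
FPKM of Hspa1a (left) and Hspa1b (right) in the 5 groups, on an axis from 0, each bar being the authors' average over 3 libraries with no error available. WT at 1 h (4.01 and 4.37 FPKM) and KO at 0.5 h (3.74 and 4.05 FPKM) are the tall bars, and resting KO (1.35 and 1.77 FPKM) stands above both earlier WT groups.

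The pair lies on chromosome 17 of GRCm38 (the mm10 assembly), on the minus strand, with Hspa1b at chr17:34956436-34959238 and Hspa1a at chr17:34969190-34972156, separated by 9951 bases. Each is a single exon in GENCODE M21. Of the 50-base words of the Hspa1a transcript, 60.3% also occur in another annotated gene, and of those of Hspa1b 62.3%, nearly all of them in the other of the pair. In the coding sequence 84.8% and 82.3% of the words were shared, and in the 3′ untranslated regions none. By the study's methods the aligner reported a single alignment per read and uniquely mapped reads alone were kept. Whether a read lying wholly within shared sequence was then dropped or placed on a single copy is not spelt out, so the values of the pair may not be independent, and the split between them is uncertain. The ratio of Hspa1b to Hspa1a was 1.17, 1.03 and 1.09 in WT at rest, 0.5 h and 1 h, and 1.31 and 1.08 in KO at rest and 0.5 h. Hspa1a also overlaps Gm20481, a protein-coding model on the opposite strand, and without a stated strand setting reads of the 2 models cannot be told apart.

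The promoters of the pair are shown because the genes moved together. They are the 250 bases before the RefSeq start (GRCm38.p6, minus strand, chr17:34972157-34972406 for Hspa1a and chr17:34959239-34959488 for Hspa1b), and capitals mark the paired heat shock unit GAANNTTC.
Hspa1a: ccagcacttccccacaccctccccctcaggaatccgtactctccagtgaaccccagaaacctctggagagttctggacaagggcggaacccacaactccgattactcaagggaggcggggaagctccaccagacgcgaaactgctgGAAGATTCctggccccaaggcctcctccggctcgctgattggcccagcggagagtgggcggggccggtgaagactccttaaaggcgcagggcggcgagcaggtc
Hspa1b: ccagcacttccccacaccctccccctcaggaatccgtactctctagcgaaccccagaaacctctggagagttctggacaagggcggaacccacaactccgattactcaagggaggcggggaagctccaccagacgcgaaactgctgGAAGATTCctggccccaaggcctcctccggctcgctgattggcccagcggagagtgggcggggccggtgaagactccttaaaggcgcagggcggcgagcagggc
Over windows of 300 bases that also take in 50 bases after the start, the pair were the same at 98.7% of positions. The 4 differences, written from Hspa1a to Hspa1b and counted from 1 at the 5′ end of the window, were C44T, T47C, T249G and C276T. None falls within the capitals, whose first base is at position -104 relative to the start in both. Both windows also hold 1 CCAAT box, on the reverse strand, at position -67. The letters GAANNTTC occur in 7.86% and CCAAT in 37.4% of the 32851 RefSeq windows of this length, each searched on both strands, so that such a match is common and marks no site by itself.

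To ask how the loss of Nelfb bears on these genes before any stimulus, resting KO was set against resting WT. Hspa1a was 2.11 times and Hspa1b 2.36 times as high in KO in plain FPKM. On the log2 scale of FPKM + 1, which shrinks ratios of low genes, the differences were 0.52 and 0.66. The fold rule took the study's fold limits for KO against WT: FPKM + 1 at 1.4 times or more, or at 0.6 times or less. The study's limit on p-values was not applied. For WT at 1 h of LPS the study used a higher fold and a limit on q-values. The counts given here are therefore not the study's own. By the fold rule, 2 of the 10 genes were higher, Hspa1a and Hspa1b, and 0 were lower. Of all kept genes 1.63% were past the fold upwards and 3.61% downwards. Hspa1a was only just inside the rule, with a ratio of 1.43 against the limit of 1.4. The median log2 ratio was -0.02 over the 10 genes and also -0.02 over all kept genes.

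Among the others at rest the lowest log2 ratio was that of Hsp90ab1, a constitutive HSP90, which had 515 FPKM in WT and 384 FPKM in KO (-0.42). Hspa8 had 1204 and 1048 FPKM (-0.20). These are within the limits of the fold rule. Resting WT stood apart in a way that moved with transcript length. The median log2 ratio of KO over WT at rest was -0.33 in the 10% of kept genes with the shortest transcripts and 0.15 in the 10% with the longest, and the transcripts of the 10 genes run from 930 to 5622 bases. With that trend removed the ratios of Hspa1a and Hspa1b were 0.54 and 0.68. After scaling each group by its summed FPKM, chosen after seeing the data, the median of all kept genes moved to 0.16 and the all-gene split went from 184 higher and 406 lower to 1046 higher and 159 lower (329 and 279 under quantile normalization, 299 and 214 with the length trend removed), while Hspa1a and Hspa1b had 0.61 and 0.77. The sign at rest turned for Hspa8, Hspa5 and Hsp90aa1 under this scaling and under quantile normalization, for Dnajb1 under this scaling, and for Hsph1 and Dnaja1 with the length trend removed, so that none of these 6 genes has a direction here.

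After 0.5 h of LPS the distance between the genotypes was wider for the inducible pair. Hspa1a had 3.74 FPKM in KO and 0.858 FPKM in WT, a plain ratio of 4.36 and a log2 ratio of 1.35. Hspa1b had 4.05 and 0.884 FPKM, a plain ratio of 4.58 and a log2 ratio of 1.42. The 2 values lay above those of 99.6% of kept genes. Past the fold were 2 of the 10 genes upwards and 0 downwards, beside 2.03% and 1.36% of all kept genes. Dnajb1, the J-domain protein that works with inducible HSP70, had 16.8 FPKM in KO and 13.2 FPKM in WT. Its log2 ratio of 0.32 was the highest among the other 8 genes and above 95.3% of kept genes, yet within the fold limits. The other 7 ranged from -0.22 (Hsp90ab1) to 0.08 (Hspa8), and the sign for Hspa5 and Dnaja1 turned under sum scaling and quantile normalization. The median was 0.06 over the 10 genes and 0.01 over all kept genes.

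**Figure D3:**
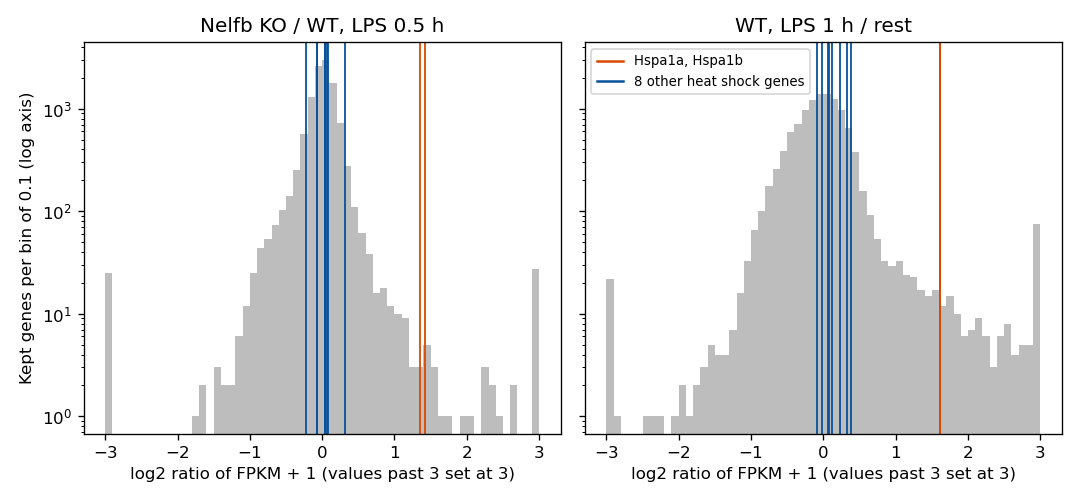
Number of kept genes (logarithmic axis) by log2 ratio of FPKM + 1 for KO over WT at 0.5 h of LPS (left) and for WT at 1 h of LPS over rest (right), with values beyond 3 drawn at 3. Lines mark the heat shock genes: Hspa1a and Hspa1b lie in the upper tail at 1.35 and 1.42 on the left and 1.61 and 1.62 on the right, and the other 8 genes lie in the body of the distribution.

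The course of the genes in WT cells was read from 3 groups, of which resting WT and WT at 0.5 h also enter the comparisons with KO above. At 0.5 h against rest, Hspa1a was at 1.34 times and Hspa1b at 1.18 times its resting FPKM (log2 ratios of 0.18 and 0.11). None of the 10 genes was past the fold in either direction, beside 1.09% of all kept genes upwards and 2.07% downwards. The 10 ratios ran from -0.18 (Hsp90ab1) to 0.18 (Hspa1a). Sum scaling shifted the median of all genes by 0.21 here and turned the sign for Hspa8, Hsp90ab1 and Dnajb1, quantile normalization turned it for Hspa8 and Hsp90ab1, and removal of the length trend turned it for Hspa5, Hsp90aa1 and Dnaja1. The all-gene split of 123 higher and 233 lower became 1120 and 67 under sum scaling, 167 and 145 under quantile normalization, and 154 and 75 with the length trend removed. By contrast the textbook LPS targets were already apart at this time: Tnf, which encodes the cytokine TNF, had 34.5 FPKM at rest and 302 FPKM at 0.5 h, and Egr1, an immediate early transcription factor, had 2.41 and 79.6 FPKM.

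At 1 h of LPS in WT, Hspa1a was at 6.28 times and Hspa1b at 5.84 times the resting FPKM, with log2 ratios of 1.61 and 1.62. These 2 of the 10 genes were past the fold upwards and 0 downwards, beside 6.26% and 3.22% of all kept genes (705 and 362 genes, or 1078 and 222 under sum scaling and 650 and 168 with the length trend removed). Dnaja1, a J-domain partner of HSP70, had 29.0 FPKM at rest and 37.9 FPKM at 1 h (0.38). Hspa5, the chaperone of the endoplasmic reticulum, had 287 and 361 FPKM (0.33), and Hsp90aa1, the inducible HSP90, had 135 and 159 FPKM (0.24). These 3 were within the fold limits, and the first 2 pass a fold of 1.2 upwards, which 17.9% of all kept genes passed. With the length trend removed, Dnaja1, the longest transcript of the 10 genes, was at 0.19, below a fold of 1.2, and Hspa5 was at 0.28. The median log2 ratio was 0.18 over the 10 genes and -0.02 over all kept genes. Against the 0.5 h group, WT at 1 h had log2 ratios of 1.43 for Hspa1a and 1.51 for Hspa1b, again 2 genes upwards and 0 downwards, beside 4.17% and 0.693% of all kept genes. In that comparison Hspa5 (0.32), Dnaja1 (0.29), Hspa8 (0.25) and Hsp90aa1 (0.23) came next. The sign for Hsp90ab1 and Hsph1 turned under sum scaling and quantile normalization, that for Dnajb1 under sum scaling, and that for Hspb1 under quantile normalization.

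In KO cells 0.5 h of LPS went with higher FPKM of the pair. Hspa1a had 1.35 FPKM at rest and 3.74 FPKM at 0.5 h (2.78 times, log2 ratio 1.01), and Hspa1b had 1.77 and 4.05 FPKM (2.29 times, 0.87). Of the 10 genes, 2 were past the fold upwards and 0 downwards, beside 1.32% and 0.222% of all kept genes. Dnajb1 had 13.6 and 16.8 FPKM (0.29, above 98.0% of kept genes). The other 7 lay between -0.02 (Hsph1) and 0.11 (Hspa5).

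**Figure D4:**
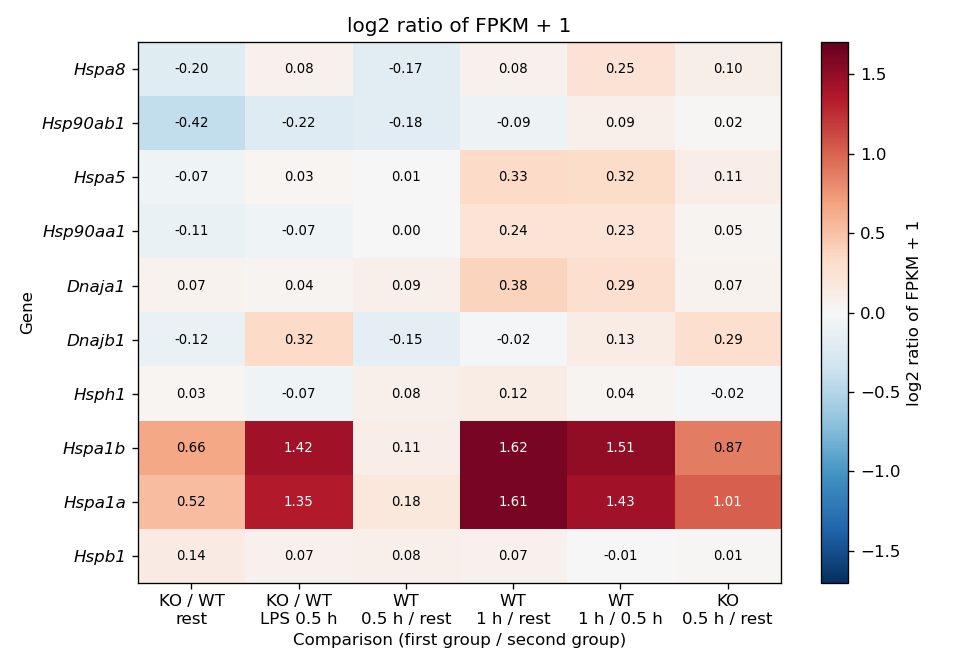
Log2 ratios of FPKM + 1 of the 10 genes in the 6 comparisons, with genes ordered by FPKM in resting WT, red for higher and blue for lower in the group named first. The rows of Hspa1a and Hspa1b are red throughout, but paler for KO over WT at rest (0.52 and 0.66) and palest for WT at 0.5 h over rest (0.18 and 0.11). No cell of the other genes exceeds 0.42 in size.

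The response to 0.5 h of LPS was next set side by side in the genotypes. The log2 ratio for KO minus that for WT was 0.83 for Hspa1a (1.01 and 0.18) and 0.76 for Hspa1b (0.87 and 0.11). Without a pseudocount the differences were 1.05 and 0.96. For Dnajb1 the difference was 0.44, for Hspa8 0.28 and for Hsp90ab1 0.20, and the other 5 genes lay between -0.10 and 0.10. The sign for Hspa8, Hsp90ab1, Hspa5 and Hsp90aa1 turned under sum scaling and quantile normalization (Hspa8 to -0.01 and -0.18, Hsp90ab1 to -0.08 and -0.03), that for Dnaja1 turned with the length trend removed, and Dnajb1 was at 0.17 under sum scaling. Hspa1a and Hspa1b were at 0.72 and 0.64 under sum scaling. A difference of at least the fold of 1.4 was found for 2 of the 10 genes, Hspa1a and Hspa1b, and for 8.80% of all kept genes. An interaction of genotype and LPS could not be tested on group averages.

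The level that the pair had in KO at 0.5 h was close to that of WT at 1 h. The FPKM in KO at 0.5 h was 0.932 times that in WT at 1 h for Hspa1a and 0.925 times for Hspa1b. For 3 other LPS-responsive genes, named as references, the same ratio was 0.775 for Egr1, 0.640 for Nfkbia (the inhibitor of NF-kB that is itself an NF-kB target) and 0.296 for Tnf. In KO at 0.5 h and WT at 1 h, Sowahc had 20.3 and 22.8 FPKM, and Adm had 2.30 and 3.87 FPKM. Both were picked for a pattern like that of Hspa1b, as described below. The ratio was not set against all kept genes, so closeness to WT at 1 h is not shown to be particular to the pair. These 2 groups differ in both genotype and time. The balance within the HSP70 family moved with the values of the pair. The FPKM of Hspa8 was 867, 613 and 151 times the sum of Hspa1a and Hspa1b in WT at rest, 0.5 h and 1 h, and 336 and 145 times in KO at rest and 0.5 h.

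The constitutive and organelle chaperones had nearly level values. Hspa8, which also assists clathrin uncoating and chaperone-mediated autophagy, had 1204, 1067 and 1270 FPKM in WT at rest, 0.5 h and 1 h, and 1048 and 1126 FPKM in KO at rest and 0.5 h. Its highest group value was 1.21 times its lowest. Of its transcript's 50-base words 73.2% occur in 11 annotated pseudogenes, which makes its FPKM uncertain. Hspa5, which also restrains the sensors of the unfolded protein response, had 287, 289, 361, 274 and 296 FPKM in the same order, with WT at 1 h the highest and a transcript sharing none of its words. Hspa5 carries in its promoter a full ER stress element, the site known for the response to unfolded protein in the endoplasmic reticulum.

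HSP90 had unequal paralogs. Hsp90aa1 had 135, 135 and 159 FPKM in WT at rest, 0.5 h and 1 h and 125 and 129 FPKM in KO at rest and 0.5 h, with 58.5% of its words shared with 4 pseudogenes. Hsp90ab1 had 515, 454, 484, 384 and 389 FPKM in the same order. In the FPKM as deposited, both KO groups were below all 3 WT groups for Hsp90ab1 and for Hsp90aa1, with the sign at rest turning for Hsp90aa1 under the scalings named above. For Hsp90ab1 the log2 ratio at rest was -0.42 as deposited, -0.20 under sum scaling and -0.22 under quantile normalization. The ratio of Hsp90ab1 to Hsp90aa1 was 3.81 in resting WT and between 3.03 and 3.35 in the other 4 groups. Resting WT is the group with the length trend described above, and the 2 transcripts differ in length (2520 and 3281 bases).

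The co-chaperones differed little. Hsph1, the nucleotide exchange partner of HSP70, had 13.7, 14.5 and 15.0 FPKM in WT and 14.0 and 13.8 FPKM in KO, the narrowest range of the 10 genes (1.10 times). Dnajb1 had 14.8, 13.2 and 14.5 FPKM in WT and 13.6 and 16.8 FPKM in KO, with KO at 0.5 h above every other group. Dnaja1 had 29.0, 30.9 and 37.9 FPKM in WT and 30.4 and 31.8 FPKM in KO. Of its transcript's 50-base words 18.7% occur in 4 other annotated genes, 3 of them pseudogenes, and of those in its coding sequence 89%. Dnaja1 peaked in WT at 1 h, the group that has no KO counterpart. The locus given for Dnaja1 in the table also takes in Smu1 and Gm6297 on the opposite strand, which its annotation overlaps.

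Hspb1, the small heat shock protein known as HSP25 in mouse, was near the filter in every group. It had 0.496, 0.583 and 0.571 FPKM in WT and 0.646 and 0.662 FPKM in KO. The KO values were the higher ones, but the log2 differences were 0.14 at rest and 0.07 at 0.5 h. Hspb1 has the shortest transcript of the 10 genes, and with the length trend removed its difference at rest was 0.49, just past the fold. With the same removal, WT at 0.5 h and 1 h had log2 ratios of 0.43 and 0.45 over resting WT. That of KO over WT at 0.5 h was 0.003, so the difference was seen only against resting WT. In addition, 51.6% of its words occur in the pseudogene Hsp25-ps1. The same limit on reads within shared sequence holds for it.

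The promoter letters of Hspa5 and Hspb1 are given to set beside those of the inducible pair: 1 highly expressed gene without a GAANNTTC unit and 1 low gene with more than the pair have. Both are on the plus strand of GRCm38.p6 in RefSeq, at chr2:34771840-34772089 and chr5:135887669-135887918. Capitals mark the ER stress element in Hspa5 and GAANNTTC in Hspb1.
Hspa5: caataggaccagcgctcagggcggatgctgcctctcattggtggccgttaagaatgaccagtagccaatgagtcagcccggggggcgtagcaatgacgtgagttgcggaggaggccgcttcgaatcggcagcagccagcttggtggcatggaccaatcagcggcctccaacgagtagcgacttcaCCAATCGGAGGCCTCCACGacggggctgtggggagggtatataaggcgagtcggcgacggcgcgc
Hspb1: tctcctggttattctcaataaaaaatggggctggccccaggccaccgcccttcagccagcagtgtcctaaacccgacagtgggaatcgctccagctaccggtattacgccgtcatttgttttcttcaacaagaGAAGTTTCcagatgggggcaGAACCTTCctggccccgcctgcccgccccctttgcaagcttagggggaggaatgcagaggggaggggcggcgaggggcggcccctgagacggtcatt
Hspb1 held GAANNTTC at positions -117 and -97, and its FPKM stayed under 0.7 in all groups. The ER stress element of Hspa5 began at position -65, overlaps 1 of its 4 CCAAT boxes, and occurs in 0.119% of all windows. Hsph1 held TTCNNGAA, the same units in the other order and found in 8.52% of windows, at position -54 from its first listed start, and a 3-unit heat shock element (0.603% of windows), which includes further GAANNTTC and TTCNNGAA letters, at position 16. Of 3 windows of Dnaja1, 1 held GAANNTTC, and neither of the windows of Dnajb1 held either order. RefSeq windows were matched for 7 of the 10 genes, not for Hspa8, Hsp90aa1 and Hsp90ab1. Hspb1, which was near the filter, and Hsph1 held these letters, and their group values differed by at most 1.34 times. Whether the letters bear on the ratios was not tested.

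**Figure D5:**
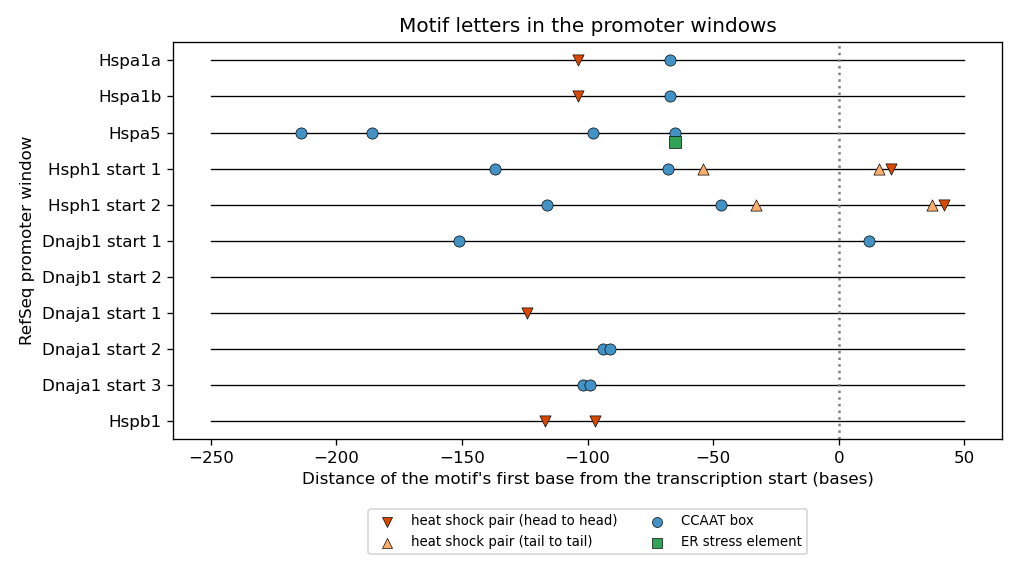
Position of motif letters in the 11 RefSeq promoter windows of 7 heat shock genes, with the distance of the first base from the start site (in bases) on the horizontal axis and 1 line per window. Hspa1a and Hspa1b carry the same 2 marks, a heat shock pair at -104 and a CCAAT box at -67, and Hspa5 carries 4 CCAAT boxes and the ER stress element.

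The genes whose pattern was most like that of Hspa1b, which had the widest range on the log2(FPKM + 1) scale (Hspa1a had the wider one in plain FPKM), were found by the Euclidean distance between log2(FPKM + 1) values of the 5 groups, each gene centred on its mean. Hspa1a was nearest, at 0.160. Then came Sowahc (0.469), with 7.87, 11.1 and 22.8 FPKM in WT and 13.1 and 20.3 FPKM in KO. Adm, which encodes the vasodilator peptide adrenomedullin, followed at 0.474, with 0.598, 0.716 and 3.87 FPKM in WT and 0.939 and 2.30 FPKM in KO. A630072M18Rik (0.687) and Fosl2, an AP-1 subunit (0.695), came after these. In each of the 5 the WT group at 1 h was the highest and resting WT the lowest. Hspa1b has the same highest and lowest groups, and the genes were chosen for likeness to it. The shared order therefore follows from the choice and is no separate result.

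The wider chaperone network was described by the same rule. In 9 lists of related genes (other HSP70 and HSP110, HSP90, J-domain and small heat shock proteins, chaperonins, co-chaperones, heat shock factors with their regulators, chaperones of the endoplasmic reticulum, and stress ubiquitin genes) there were 86 genes, of which 72 passed the filter. In KO against WT at rest, 1 was higher and 1 lower (1.39% each, beside 1.63% and 3.61% of all kept genes), with a median of -0.18 beside -0.02 for all kept genes. The 20 co-chaperones had a median of -0.31 there. Their median was also -0.18 in WT against rest, both at 0.5 h and at 1 h, and -0.01 in KO against WT at 0.5 h. Resting WT, the group with the length trend described above, enters the first 3 of these medians. At 0.5 h, 0 of the 72 genes were past the fold in KO against WT (beside 2.03% and 1.36%), with a median of -0.01 beside 0.01. In WT, 0 were past the fold at 0.5 h (beside 1.09% and 2.07%), and 3 were higher and 0 lower at 1 h against rest, or 4.17% upwards beside 6.26% of all kept genes. At 1 h against 0.5 h, 1 was higher (1.39% beside 4.17%), and in KO 0 were past the fold after LPS (beside 1.32% and 0.222%). The shares over these 72 genes were at or below those of all kept genes in each of the 6 comparisons, and nothing about the lists is read from them.

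The genes past the fold were Dnajb4, Dnajb9, Hspa13 and Hspbp1. Dnajb4, a J-domain protein of the cytosol, had 10.8, 14.6 and 48.0 FPKM in WT and 13.3 and 16.3 FPKM in KO. It was thus high in WT at 1 h (log2 ratio of 2.06 over rest) but, unlike the inducible HSP70 pair, had a log2 ratio of 0.15 for KO over WT at 0.5 h. Dnajb9, a J-domain protein of the endoplasmic reticulum, had 16.2, 21.1 and 24.2 FPKM in WT and 27.3 and 28.2 FPKM in KO, with ratios of 0.72 for KO at rest and 0.56 for WT at 1 h. Hspa13, a microsomal HSP70 relative, had 10.8, 12.5 and 16.6 FPKM in WT and 11.0 and 10.9 FPKM in KO. Hspbp1, a nucleotide exchange factor of HSP70, had 37.6 FPKM in resting WT and between 20.6 and 23.7 FPKM in the other 4 groups. Its log2 ratio for KO over WT was -0.84 at rest and -0.15 at 0.5 h. WT at 0.5 h and 1 h had -0.64 and -0.67 over rest. Its transcript has 1593 bases, and resting WT is the group with the length trend described above. Hsf1, the master factor of the heat shock response, had between 9.88 and 10.5 FPKM in all 5 groups.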

How the data were processed

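Per the labels and the study's methods, BMDM were grown in L929-conditioned medium, polyadenylated RNA was made into TruSeq libraries, and the authors used CASAVA 1.8, TopHat2 2.1.0 (mm10) and Cuffdiff of Cufflinks 2.2.1. The FPKM values deposited by the authors are 1 average per gene and group. The table also holds 12 columns of the authors' comparisons (fold changes, p-values and q-values of 4 comparisons), which were not used. Of the group columns 3 are repeated, and 17 genes, none of them a heat shock gene here, differ there. The planned limma fit needed values per library, so groups were described by folds, with no test. The depth per library was not used here, so that the counting precision is unknown.

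Samples were grouped by genotype and time in the labels. A pseudocount of 1 was added to FPKM before log2 ratios were formed, over genes averaging 0.5 FPKM or more, in 6 comparisons that share groups. The text names all 10 genes, up to 4 genes past the fold of each of 9 related lists, the 5 genes nearest in pattern, and reference genes (Tnf, Egr1, Nfkbia, Nelfb, Hsf1, Cd4). The members and lists were chosen with earlier results of these data known. Transcripts, lengths (99.3% of kept genes) and shared words came from GENCODE M21 (GRCm38), with words of 50 and 100 bases, and promoters from RefSeq (GRCm38.p6). Alternatives were symmetric folds of 1.4 and 1.2, a pseudocount of 0.1 or none, no filter or 1 FPKM, median, quantile and sum scaling, removal of the length trend, and another resting reference. The calculation was tested on simulated data made from genes averaging at least 10 FPKM. Hspa1a, Hspa1b and Hspb1 lie below that and were not covered by this test. Python 3.11.15, numpy 2.4.6 and pandas 2.3.3 were used, with matplotlib 3.10.9.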

Additional observations from a re-analysis of the deposited data

How the results depend on the processing

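Hspa1a and Hspa1b were past the fold upwards in the same 5 of 6 comparisons under all 10 alternatives at their folds, and in none at 0.5 h in WT. The log2 ratio of KO over WT at 0.5 h was at least 1.34 for Hspa1a and 1.41 for Hspa1b, and was highest without a pseudocount (plain ratios of 4.36 and 4.58). A symmetric fold of 1.2 gave 4 genes instead of 2 in WT at 1 h, both against rest and against the 0.5 h group (4), adding Hspa5 and Dnaja1 in both, since the limit is lower. It gave 3 genes for KO at rest (Hsp90ab1 lower), KO at 0.5 h and KO after LPS (Dnajb1 higher in both), and removal of the length trend gave 3 for KO at rest (Hspb1 higher). With resting KO as the reference, the log2 ratio of Hspa1b in WT at 0.5 h was -0.56 instead of 0.11. The filter at 1 FPKM left out Hspb1. Counts over all genes moved by more than 1.5 times, except those of higher genes in WT at 1 h against 0.5 h and KO after LPS. Over 8 settings at the same fold, KO at rest gave 176 to 1046 higher and 159 to 637 lower (184 and 406 as reported), KO at 0.5 h 189 to 348 and 151 to 307 (228 and 153), WT at 0.5 h 121 to 1120 and 67 to 329 (123 and 233), WT at 1 h against rest 650 to 1078 and 168 to 644 (705 and 362), WT at 1 h against 0.5 h 381 to 528 and 76 to 225 (469 and 78), and KO after LPS 143 to 180 and 6 to 28 (149 and 25). The cause was not tested. Sum scaling and no pseudocount were chosen after seeing the data. No paired analysis was possible because the table holds group averages, and for the same reason no replicate could be left out. Low FPKM of Hspa1a, Hspa1b and Hspb1, shared sequence and unknown depth limit these values.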
